A study of Rattus norvegicus with 91 samples.

Results

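The comparison described here set 4 liver arrays taken 36 h after methylprednisolone against 4 control arrays of the same time course, 8 of the 91 arrays of the series. The arrays of each group were taken by their titles, and the comparison itself was chosen with earlier results of these data known. All rats were Wistar rats. The labels of the 36 h group name methylprednisolone, a synthetic glucocorticoid, at 50 mg/kg, and the controls carry the same dose wording with the time given as 0. The stated purpose of the series was to measure how numerous liver genes respond to the drug as time passes. The labels used here give no route, dosing schedule, vehicle, age, sex or time of day, so the control group stands for time 0 only and its hour of the day is unknown. They do not say whether replicates were separate animals, and errors and p-values therefore measure the spread between arrays, which may be technical. The array titles of this course also cover 9 other times, and the 4 arrays each at 24 h and 48 h were used as neighbours of 36 h. The labels conflict for 2 arrays, placed here by title: 48 h replicate 1 has a description worded like those of the other, shorter course, and 96 h replicate 1 is described as 72 h. The first enters the comparison with the neighbouring times, and both enter the shared estimate of spread and the group means.

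Glucocorticoids enter cells and bind the glucocorticoid receptor, which moves to the nucleus and raises or lowers the transcription of its target genes. In liver the best known targets are enzymes that break down amino acids and feed glucose production, whereas many inflammatory and antigen presentation genes are lowered. Glucocorticoids can also reset the circadian clock of the liver, a loop in which BMAL1 and CLOCK drive genes such as Dbp, Nr1d1 and Nr1d2, and the NR1D proteins in turn repress Bmal1.

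Each array gives 1 intensity value, called signal below, per probe set of an Affymetrix rat array, and signals are listed in the order of replicates 1 to 4. Values were taken as log2(signal + 32), and a change is the difference in group means on that scale, 36 h minus control, ± its standard error, so changes of low genes are understated. A change passed where limma's p-value, adjusted by Benjamini and Hochberg over 11106 probe sets, was under 0.05. Where a gene had several probe sets, the brightest was used. Pairs of 36 h arrays correlated at 0.942 to 0.963, control pairs at 0.888 to 0.944 and pairs across the groups at 0.892 to 0.941. The signals of spiked-in bacterial transcripts were high in replicate 4 of both groups and low in the others. The log2 ratio of the 3' to the 5' probe sets of Gapdh, a sign of RNA integrity, was 0.290 ± 0.106 at 36 h and 0.0964 ± 0.201 in the controls (SD, n = 4 each). The same ratio for beta-actin differed the other way, at 0.834 ± 0.202 at 36 h and 0.907 ± 0.0946 in the controls. All 9 hepatocyte markers tested had signal in every array, and their summed signal was 74440.4 to 126238 at 36 h and 74138 to 128629 in the controls. Alb signal was 13767, 19106, 18588 and 27472 at 36 h and 11936, 13862, 14269 and 27883 in the controls, and the ranges overlapped.

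Against control 563 of 11106 probe sets passed (5.07%), 266 higher (2.4%) and 297 lower (2.67%). Centring each array on its median moved that split to 336 higher and 178 lower. Counted by gene, 452 of 8069 passed (5.6%), 213 higher (2.64%) and 239 lower (2.96%), and in 808 genes (10%; 9.51% of probe sets) the 4 arrays of one group did not overlap the 4 of the other. The median change over all genes was -0.06. Without 36 h replicate 2 the number of probe sets fell to 341, and without control replicate 2 to 359. In the 3 low spike-in arrays of each group alone 614 probe sets passed, and with 1 high spike-in array in each group 2 passed, those of Gpt and Sds.

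The largest rise was that of A2m, alpha-2-macroglobulin, a broad protease inhibitor and a major acute-phase protein of the rat. Its signal was 5146, 7811, 11673 and 5961 at 36 h and 211, 217, 225 and 311 in the controls. All 36 h arrays lay far above all controls, a change of 4.76 ± 0.56 (adjusted p = 2.96e-07), or 27.1-fold on this scale. Gpt, the alanine aminotransferase that turns alanine into pyruvate, followed with signals of 2295, 2476, 2298 and 1179 at 36 h and 77.3, 80.8, 139 and 49.7 in the controls. Its change was 4.14 ± 0.34 (adjusted p = 7.09e-11), and 36 h replicate 4 was the lowest of its group. Sds, which turns serine into pyruvate, read 3727, 3359, 4186 and 1933 at 36 h and 1641, 67.5, 71.3 and 81.1 in the controls. Control replicate 1 stood near the 36 h arrays and the other controls far below them, and the groups did not overlap (3.93 ± 0.61 (adjusted p = 4.01e-05)).

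The other 12 of the 15 largest rises were of genes of varied roles. Bhmt, which remethylates homocysteine with betaine, gave signals of 9238, 7911, 12896 and 7155 at 36 h and 848, 68.5, 2470.0 and 2539 in the controls, and the control of replicate 2 was the lowest value by far (3.39 ± 0.57 (adjusted p = 0.000135)). The zinc finger protein gene Zfp354a read 432, 1554, 984 and 496 at 36 h and 10.6, 35.2, 71.7 and 62.2 in the controls, without overlap (3.45 ± 0.50 (adjusted p = 1.74e-05)). For Eif4ebp3, whose product binds the cap-binding factor eIF4E and holds back translation, signals were 1522, 1795, 2010.4 and 663 at 36 h and 145, 159, 223 and 169 in the controls (2.80 ± 0.44 (adjusted p = 5.45e-05)). Edem1 sends misfolded glycoproteins from the endoplasmic reticulum to degradation. It had signals of 4421, 5180.4, 4986 and 3296 at 36 h and 655, 836, 1026 and 572 in the controls without overlap (2.50 ± 0.28 (adjusted p = 1.11e-07)). Retreg1, a receptor for the autophagy of that compartment, changed by 2.38 ± 0.36 (adjusted p = 2.84e-05) with 36 h replicate 4 lowest, and its dimmer probe set changed by 0.43 without passing (adjusted p = 0.295). Pfkfb1, the liver enzyme that sets fructose 2,6-bisphosphate and so the balance of glycolysis and gluconeogenesis, read 735, 1004, 1165 and 792 at 36 h and 77.2, 69.8, 126 and 234 in the controls (2.68 ± 0.31 (adjusted p = 1.92e-07)). The retinol dehydrogenase Rdh16 rose by 2.79 ± 0.30 (adjusted p = 9.4e-08), the carboxylesterase Ces2c by 2.80 ± 0.54 (adjusted p = 0.000895), the sulfotransferase Sult1a1 by 2.49 ± 0.39 (adjusted p = 5.17e-05) and the RNA exosome subunit Exosc5 by 2.27 ± 0.33 (adjusted p = 1.52e-05). Groups did not overlap for these 4 genes. They overlapped for Cyp17a1, the steroid 17-hydroxylase, at 388, 555, 939.8 and 162 at 36 h and 184, 28.7, 40.2 and 41.0 in the controls (2.35 ± 0.41 (adjusted p = 0.000208)), since control replicate 1 lay above 36 h replicate 4. Prodh, the first enzyme of proline breakdown, also overlapped through control replicate 3, at 409, 1042, 753 and 565 at 36 h and 63.6, 11.4, 469 and 174 in the controls (2.25 ± 0.38 (adjusted p = 0.000156)). All 15 largest rises passed in each fit that left out 1 array.

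**Figure D1:**
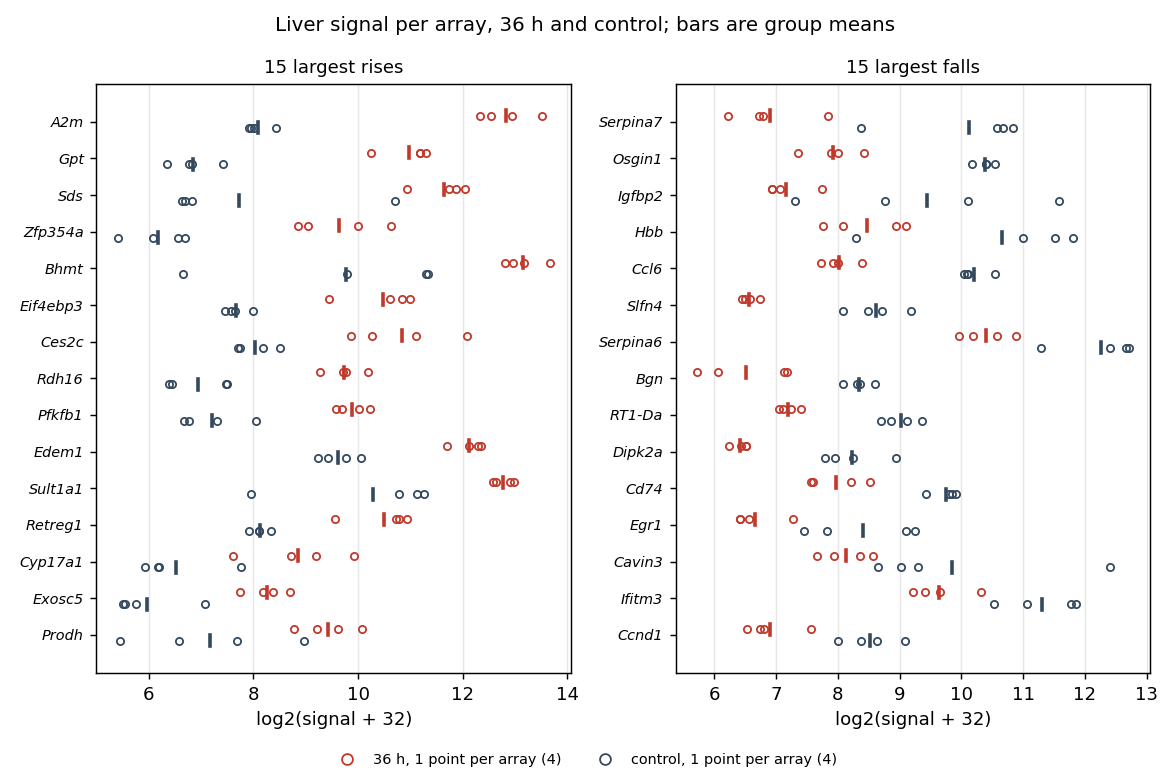
Signal of the 15 genes with the largest rise (left) and the 15 with the largest fall (right) among those that passed, as log2(signal + 32) on the horizontal axis, with 1 point per array and a bar at each group mean (36 h red, control dark blue). The 36 h points of A2m and Gpt lie clear of their controls, single control arrays stand apart for Sds and Cavin3, and the groups overlap for Cyp17a1, Prodh, Igfbp2 and Hbb.

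Among the largest falls were 3 genes of plasma carriers and binding proteins. Serpina7, the thyroxine-binding globulin, had signals of 196, 78.9, 42.9 and 73.7 at 36 h and 1500.2, 1796, 1606 and 301 in the controls. Even the lowest control, replicate 4, exceeded every 36 h array (-3.22 ± 0.46 (adjusted p = 1.12e-05)). Serpina6, the corticosteroid-binding globulin that carries glucocorticoids in plasma, read 1852, 969, 1132 and 1496 at 36 h and 5392, 2464, 6482 and 6683 in the controls, again without overlap (-1.87 ± 0.46 (adjusted p = 0.0104)). Igfbp2, a binding protein for insulin-like growth factors, read 183, 90.4, 101 and 89.7 at 36 h and 3044, 403, 1074 and 126 in the controls. Its controls spread widely, control replicate 4 lay within the 36 h range, and the change was -2.28 ± 0.49 (adjusted p = 0.00268).

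These falls also held immune genes. The chemokine gene Ccl6 had signals of 180.1, 212, 304 and 224 at 36 h and 1466, 1024, 1058 and 1073 in the controls, a change of -2.19 ± 0.24 (adjusted p = 1.11e-07) without overlap. Slfn4, a schlafen gene of myeloid cells, read 63.3, 55.5, 58.8 and 74.7 at 36 h and 389, 326, 550.1 and 238 in the controls, with every 36 h value below every control (-2.05 ± 0.30 (adjusted p = 1.52e-05)). The class II genes RT1-Da and Cd74 and the interferon-induced Ifitm3 belong here too and are described with their lists. Osgin1, an oxidative stress response gene, changed by -2.46 ± 0.49 (adjusted p = 0.00113), the matrix proteoglycan gene Bgn by -1.82 ± 0.33 (adjusted p = 0.000347) and Dipk2a by -1.81 ± 0.38 (adjusted p = 0.00231), all without overlap. A second Dipk2a probe set did not pass, at -0.06 (adjusted p = 0.956). Cavin3, a protein of caveolae, read 296, 170.3, 213 and 350.0 at 36 h and 370.3, 5399, 489.6 and 596 in the controls, and control replicate 2 was far above the other controls (-1.71 ± 0.40 (adjusted p = 0.00663)). Without that array the change of Cavin3 was -0.86 and still passed. Egr1, an immediate-early transcription factor, changed by -1.74 ± 0.30 (adjusted p = 0.000156) and the G1 cyclin gene Ccnd1 by -1.62 ± 0.33 (adjusted p = 0.00143). The beta-globin gene Hbb read 184, 519.8, 239 and 458 at 36 h and 283, 2023, 2887 and 3555 in the controls with overlapping groups (-2.19 ± 0.68 (adjusted p = 0.0493)). The call on Hbb ended without 36 h replicate 1 or 2 or 3 or 4 or control replicate 2 or 3 or 4 (adjusted p from 0.0601 to 0.171), and the summed signal of 4 erythroid markers was 354 to 648 at 36 h and 453 to 3945 in the controls. The part of red cells in this value was not tested. The other 14 falls passed in each fit that left out 1 array.

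The 27 pathway lists were read gene by gene, against the 2.64% of all genes that rose and the 2.96% that fell. All lists were chosen with earlier results of these data known. A share above that of all genes may owe something to that choice and is not independent support. Among the 32 tested members of the list of glucocorticoid-induced genes 11 rose and 3 fell, with a median change of 0.50 against -0.06 over all genes. Fkbp5, a co-chaperone that restrains the receptor, read 235, 335, 371 and 219 at 36 h and 76.1, 83.0, 85.4 and 59.2 in the controls, a change of 1.56 ± 0.32 (adjusted p = 0.00193) without overlap. Tsc22d3 (GILZ), an anti-inflammatory target, read 797, 852, 768 and 463 at 36 h and 266, 183, 309 and 248 in the controls (1.39 ± 0.24 (adjusted p = 0.000263)), again without overlap. Tat, the tyrosine aminotransferase long used as the test gene of hepatic glucocorticoid action, had signals of 2103, 2048, 2806 and 1938 at 36 h and 1374, 435, 652 and 1087 in the controls. Every 36 h array lay above every control (1.41 ± 0.34 (adjusted p = 0.00751)), but the call ended without control replicate 2 (adjusted p = 0.064). Lpin1, a phosphatidate phosphatase and coactivator of fat oxidation genes, rose by 2.22 ± 0.43 (adjusted p = 0.000915) and Tdo2, the first enzyme of tryptophan breakdown, by 1.64 ± 0.29 (adjusted p = 0.000238). Sult1e1, the estrogen sulfotransferase, rose by 1.72 ± 0.52 (adjusted p = 0.0417), a call that ended without 36 h replicate 1 or 2 or 3 or 4 or control replicate 2 (adjusted p from 0.062 to 0.344). Without control replicate 2 its change was 0.58. The receptor gene Nr3c1 read 381, 491, 407 and 351 at 36 h and 458, 419, 519 and 257 in the controls with a change of 0.01 ± 0.25 (adjusted p = 0.991), and the clock gene Per1, often a rapid target, read 86.0, 114, 117 and 45.9 at 36 h and 67.9, 89.3, 67.1 and 113 in the controls (0.05 ± 0.20 (adjusted p = 0.948)). Neither passed, and their groups overlapped.

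Members that fell ran against the name of that list. Pdk4, the kinase that shuts off pyruvate dehydrogenase, read 138, 68.4, 127 and 106 at 36 h and 339.9, 1010.0, 251 and 231 in the controls. All 36 h arrays were below all controls, of which replicate 2 was the highest (-1.57 ± 0.27 (adjusted p = 0.000238)). Angptl4, an inhibitor of lipoprotein lipase, read 111, 286, 282 and 146 at 36 h and 411, 995, 349 and 379 in the controls, without overlap (-1.20 ± 0.28 (adjusted p = 0.00683)). Its call ended without 36 h replicate 1 (adjusted p = 0.0525) or control replicate 2 (adjusted p = 0.0742). Of the 15 genes of the receptor machinery list, which holds chaperones, carriers and steroid-converting enzymes, 2 rose and 2 fell (26.7% passed, against 5.6% of all genes), with a median of 0.01. That median was -0.108 in the low spike-in arrays, -0.105 without control replicate 4, -0.0767 without 36 h replicate 2 and -0.01 over the mean of each gene's probe sets. The risers were Fkbp5 and Hsd11b1, which regenerates active glucocorticoid inside the cell. Hsd11b1 read 3691, 4933, 4553 and 3884 at 36 h and 1804, 1926, 2357 and 2167 in the controls, a change of 1.03 ± 0.17 (adjusted p = 9.17e-05) without overlap. The fallers were Serpina6 and the co-chaperone gene Bag1 (-0.50 ± 0.14 (adjusted p = 0.0208)), whose call ended without 36 h replicate 3 (adjusted p = 0.14) or control replicate 2 (adjusted p = 0.105).

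**Figure D2:**
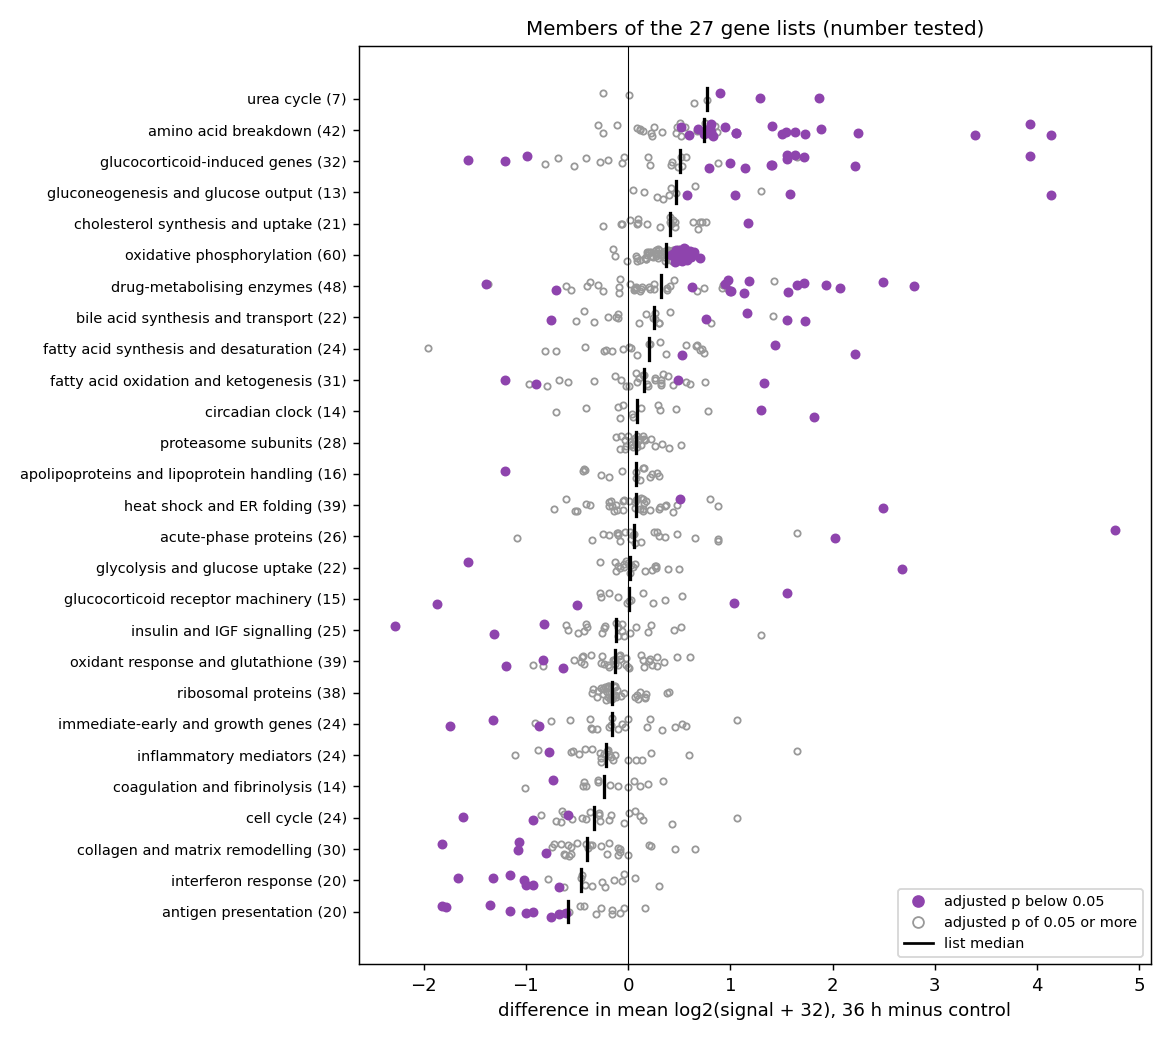
Change of every tested member of the 27 pathway lists, as 36 h minus control on the log2(signal + 32) scale (horizontal axis), with the lists in order of their median (black bar) and the number tested in brackets. Filled points passed at an adjusted p below 0.05. The urea cycle and amino acid breakdown lists stand at the upper end with medians of 0.77 and 0.75, and antigen presentation at the lower end with -0.59.

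Among enzymes of amino acid breakdown 22 of 42 tested members rose, against 2.64% of all genes, and 0 fell (0 at an unadjusted limma p under 0.05). The list median was 0.75. Besides Gpt, Sds, Bhmt, Prodh, Tat and Tdo2, the risers covered transamination and the routes of methionine, proline, lysine, branched chains and aromatic rings. Tdo2 signal was 6716, 9558, 9384 and 10620.0 at 36 h and 2468, 2170.3, 3584 and 3462 in the controls, and all 36 h arrays lay above all controls. The count fell to 10 without control replicate 2, to 13 without 36 h replicate 3 and to 6 with a fit on the 8 arrays alone. Control replicate 2 had the lowest signal of its group for Bhmt, Prodh, Tat, Sds and Tdo2.

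The neighbouring nitrogen and glucose routes shared members of this pattern. In the urea cycle, which turns the released ammonia into urea, 3 of 7 members rose (42.9%, against 2.64% of all genes) and 0 fell (0 at an unadjusted p). Arg1, its last enzyme, read 8764, 10364, 9954 and 10342 at 36 h and 2744, 1685, 3146 and 3523 in the controls, with the 36 h arrays close together and far above every control (1.86 ± 0.24 (adjusted p = 1.41e-06)). Ass1, the argininosuccinate synthase, read 7488, 9132, 9561 and 8061 at 36 h and 4523, 2068, 3497 and 4399 in the controls, without overlap (1.29 ± 0.33 (adjusted p = 0.0149)), and its call ended without control replicate 2 (adjusted p = 0.0903). Otc, the mitochondrial ornithine transcarbamylase, read 2396, 2348, 2061 and 1882 at 36 h and 753, 707, 1795 and 1777 in the controls (0.90 ± 0.22 (adjusted p = 0.00977)). The call on Otc ended without control replicate 1 (adjusted p = 0.067) or control replicate 2 (adjusted p = 0.0855). The urea cycle count was 2 without control replicate 1 and 1 without control replicate 2.

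Of 13 genes of gluconeogenesis and glucose output, 4 rose (30.8%, against 2.64% of all genes) and 0 fell (0 at an unadjusted p). Slc37a4, the transporter that brings glucose 6-phosphate to the glucose-releasing phosphatase, read 1334, 1624, 1989.6 and 1491 at 36 h and 597, 253, 413 and 1041 in the controls (1.59 ± 0.24 (adjusted p = 3.42e-05)). Mdh1, which regenerates cytosolic oxaloacetate and malate, read 3066, 3766, 3202 and 3055 at 36 h and 1444, 1482, 1483 and 1870.2 in the controls (1.05 ± 0.19 (adjusted p = 0.000313)). Neither gene had overlapping groups. Gpt, above, and the cAMP-responsive factor gene Crem were the others. Crem rose by 0.58 ± 0.15 (adjusted p = 0.0186), a call that ended without 36 h replicate 2 or 3 or control replicate 2 (adjusted p from 0.0672 to 0.121). Of its dimmer probe sets 1 passed, at 1.05 (adjusted p = 0.0196), and 1 did not, at 0.40 (adjusted p = 0.318). Pck1, the enzyme usually taken as the rate-setting step, was not among them, with signals of 4339, 5927, 6243 and 5607 at 36 h and 4665, 4905, 3409 and 3594 in the controls and a change of 0.42 (adjusted p = 0.464). Pck1 was singled out after its values were seen. In glycolysis and glucose uptake 1 of 22 members rose (Pfkfb1) and 1 fell (Pdk4), so that 9.09% passed, against 5.6% of all genes. The median of this list, 0.02, turned to -0.02 without 36 h replicate 3, -0.03 without control replicate 3 and -0.05 in the high spike-in arrays.

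**Figure D3:**
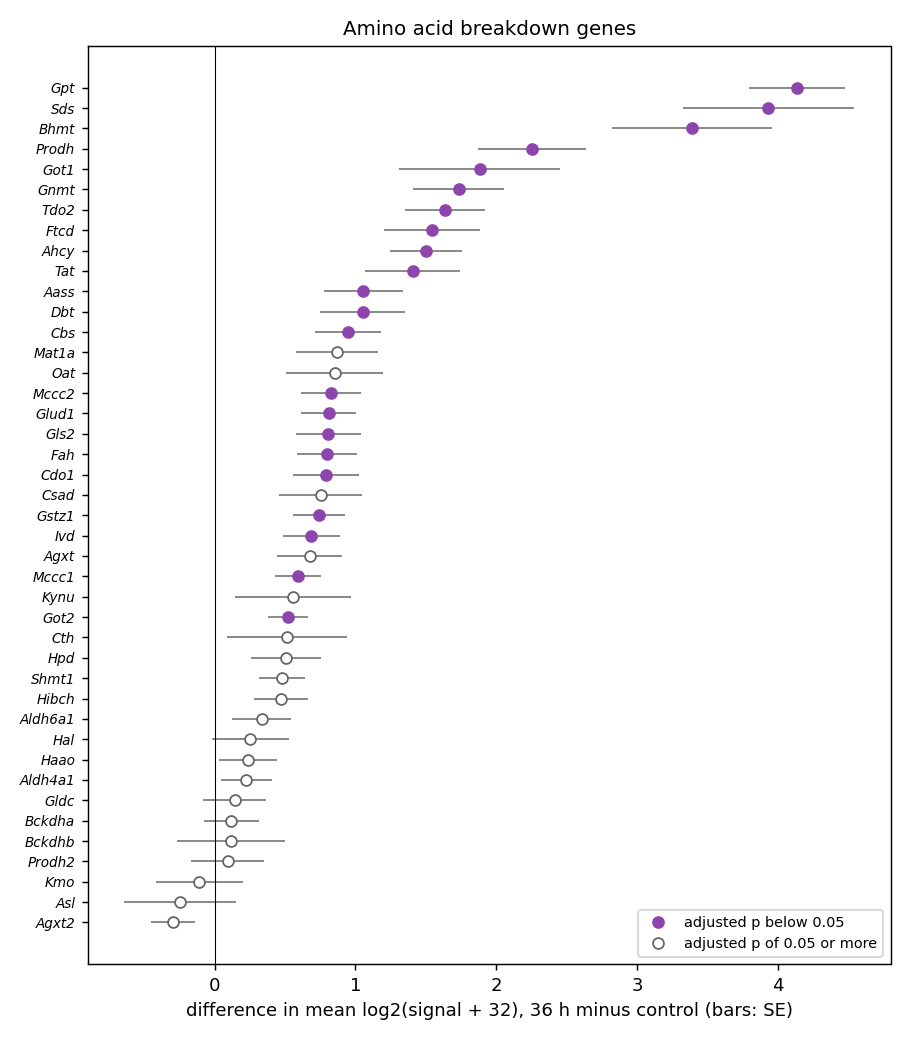
Change of the 42 tested genes of amino acid breakdown at 36 h against control on the log2(signal + 32) scale, with bars of 1 standard error; filled points passed at an adjusted p below 0.05. Changes run from -0.29 (Agxt2) to 4.14 (Gpt), and no member below 0 passed.

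Most genes of the fatty acid lists did not pass, although the share that passed was above that of all genes. In the fatty acid oxidation and ketogenesis list 2 of 31 members rose and 2 fell (12.9% passed, against 5.6% of all genes), 27 did not pass, and each of these 4 calls ended without some single array. Cyp4a8 rose by 1.33 ± 0.35 (adjusted p = 0.0167) (ended without 36 h replicate 2 or 3 or control replicate 2 (adjusted p from 0.0528 to 0.0607); its dimmer probe set did not pass, at 0.73, adjusted p = 0.278), whereas its relative Cyp4a1, a fatty acid omega-hydroxylase, changed by -0.90 ± 0.25 (adjusted p = 0.0244) (ended without 36 h replicate 2 or 4 or control replicate 1 or 2 (adjusted p from 0.0698 to 0.156)). Acat1, which makes and breaks acetoacetyl-CoA, rose by 0.49 ± 0.14 (adjusted p = 0.0361) (ended without 36 h replicate 1 or 2 or 3 or control replicate 2 or 3 or 4 (adjusted p from 0.0638 to 0.193)), and Angptl4 was the other faller. In the list of fatty acid synthesis and desaturation 3 of 24 rose (12.5% passed, against 5.6% of all genes) and 0 fell (3 at an unadjusted p). These were Lpin1, the sterol-sensing receptor gene Nr1h3 and Thrsp, a lipogenic protein. Lpin1 signal was 339, 1419.5, 1057 and 939 at 36 h and 134, 124, 178 and 188 in the controls, without overlap. Nr1h3 read 513, 504, 496 and 546 at 36 h and 354, 322, 360.4 and 354 in the controls, a small change with tight groups (0.53 ± 0.13 (adjusted p = 0.00833)). Thrsp read 2527, 2514, 3094 and 7151 at 36 h and 384, 717, 1884 and 4585 in the controls with overlap (1.43 ± 0.44 (adjusted p = 0.0474)), and its call ended without 36 h replicate 1 or 2 or 3 or 4 or control replicate 1 or 2 (adjusted p from 0.0534 to 0.287). Without control replicate 1 the change of Thrsp was 0.89. Of its other 2 probe sets 1 passed, at 1.54 (adjusted p = 0.0494), and 1 did not, at 1.28 (adjusted p = 0.0739).

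Sterol and bile acid genes were read from separate lists. Of 21 cholesterol genes 1 rose and 0 fell (0 at an unadjusted p), so that 4.76% passed, near the 5.6% of all genes. This was Hsd17b7, at 745, 453, 428 and 247 at 36 h and 271, 97.7, 363 and 87.9 in the controls with overlap (1.18 ± 0.32 (adjusted p = 0.0221)), and the call ended without 36 h replicate 1 or 2 or control replicate 2 or 4 (adjusted p from 0.0581 to 0.119). In bile acid synthesis and transport 4 of 22 rose and 1 fell (22.7% passed, against 5.6% of all genes), and the risers were 2 without control replicate 2 or 36 h replicate 3. The list median of 0.25 turned to -0.135 without control replicate 2 and to -0.226 in the high spike-in arrays. Acox2, which shortens the side chain of bile acid precursors, read 1691, 1667, 1304 and 1597 at 36 h and 568, 109.9, 674 and 844 in the controls, without overlap (1.73 ± 0.30 (adjusted p = 0.000238)), and its change was 1.14 without control replicate 2. Slc27a5, the bile acid CoA ligase, read 3982, 3149.7, 3312 and 3141 at 36 h and 1059, 946, 2395 and 2027 in the controls (1.17 ± 0.22 (adjusted p = 0.000782)), also without overlap. Cyp8b1, which makes cholic acid, rose by 1.55 ± 0.39 (adjusted p = 0.0131) with control replicate 1 within the 36 h range, and the call ended without 36 h replicate 3 or control replicate 2 or 3 (adjusted p from 0.0553 to 0.0822). Scp2, a sterol carrier, rose by 0.76 ± 0.23 (adjusted p = 0.0472), a call that ended without 36 h replicate 2 or 3 or 4 or control replicate 1 or 2 or 3 (adjusted p from 0.0607 to 0.215). Of 16 apolipoprotein and lipoprotein genes 1 fell, Angptl4, and 0 rose (0 at an unadjusted p), so that 6.25% passed, near the 5.6% of all genes. Their median of 0.08 turned to -0.08 under quantile normalization, -0.05 without 36 h replicate 4 and -0.26 in the high spike-in arrays.

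Among drug-metabolising enzymes 14 of 48 tested members rose and 2 fell (33.3% passed, against 5.6% of all genes), with a median of 0.32. Por, the reductase that supplies electrons to microsomal cytochromes P450, read 903, 1201, 1431 and 897 at 36 h and 331, 277, 169 and 188 in the controls, without overlap (2.08 ± 0.41 (adjusted p = 0.0011)). Cyp1a1 read 103, 259.8, 82.3 and 80.5 at 36 h and 7.75, 9.05, 3.87 and 8.36 in the controls, and all controls were very low (1.94 ± 0.40 (adjusted p = 0.00183)). Sult1a1 and Ces2c, among the largest rises, belong here. Sult1a1 signal was 6048, 8034, 7588 and 6325 at 36 h and 1729.6, 215, 2205 and 2427 in the controls, with control replicate 2 far below the other controls. Ces2c signal was 1202, 4281, 2187 and 896 at 36 h and 258, 181, 331 and 178 in the controls. Probe sets of such families can read near-identical copies, so these values may hold more than 1 gene.

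Subunits of the respiratory chain lay mostly above 0, by small amounts. Of 60 tested oxidative phosphorylation genes 57 lay above 0, against 41.7% of all tested genes. In all 18 rose (30% of the list, against 2.64% of all genes) and 0 fell (0 at an unadjusted p), and the median was 0.38. Atp5f1e, a subunit of the ATP synthase, read 1927, 2377, 1912 and 2049 at 36 h and 993, 1230.3, 1415 and 1404 in the controls (0.71 ± 0.16 (adjusted p = 0.00546)). Atp5mg, another subunit of that complex, read 2559, 2519, 3054 and 2437 at 36 h and 1779, 1668, 1738 and 1562 in the controls (0.63 ± 0.14 (adjusted p = 0.00386)). In both the 36 h arrays lay above all controls. Ndufv3 of complex I rose by 0.65 ± 0.20 (adjusted p = 0.0456) (ended without 36 h replicate 2 or 3 or 4 or control replicate 1 or 2 or 3 (adjusted p from 0.0639 to 0.148)), and its dimmer probe set did not pass, at 0.21 (adjusted p = 0.693). Atp5me rose by 0.62 ± 0.19 (adjusted p = 0.0433) (ended without 36 h replicate 2 or 3 or control replicate 1 or 2 or 3 (adjusted p from 0.0543 to 0.206)). The count of risers was 10 without 36 h replicate 1 or 3 or control replicate 4, 7 without 36 h replicate 2 and 9 without control replicate 2. It was 10 under quantile normalization and 0 with a fit on the 8 arrays alone.

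Most genes of acute-phase proteins did not pass. Of 26 tested members 2 rose, A2m and Orm1, and 0 fell (2 at an unadjusted p), so that 7.69% passed, against 5.6% of all genes. The median of 0.06 turned to -0.07 under quantile normalization and to -0.01 without 36 h replicate 4. Orm1, the acid glycoprotein that binds drugs in plasma, read 8398, 11936, 13014 and 16722 at 36 h and 3836, 6891, 785 and 3684 in the controls, without overlap (2.02 ± 0.44 (adjusted p = 0.003)). Fgb, the fibrinogen beta chain, read 9074, 11587, 12945 and 19199.8 at 36 h and 11529, 14144, 11368 and 18289.9 in the controls (-0.09 ± 0.32 (adjusted p = 0.931)), with overlapping groups. Serpina1, the alpha-1-antitrypsin gene, changed by 0.36 ± 0.32 (adjusted p = 0.648), and it passed under quantile normalization (adjusted p = 0.026). Among 14 coagulation genes 0 rose (0 at an unadjusted p) and 1 fell, so that 7.14% passed, against 5.6% of all genes. The faller was Plat, the tissue plasminogen activator (-0.73 ± 0.18 (adjusted p = 0.00982)), a call that ended without 36 h replicate 4 (adjusted p = 0.0622) or control replicate 2 (adjusted p = 0.0553).

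Among genes of antigen presentation 9 of 20 tested members fell, against 2.96% of all genes, and 0 rose (0 at an unadjusted p). In all 19 lay below 0 with a median of -0.59. RT1-Da and RT1-Ba encode the alpha chains of rat MHC class II molecules, and Cd74 the chain that escorts them. RT1-Da read 119, 99.8, 107 and 137 at 36 h and 526, 630.1, 385 and 433 in the controls (-1.82 ± 0.31 (adjusted p = 0.000142)). Cd74 read 158, 162, 336 and 264 at 36 h and 889, 864, 659.6 and 937 in the controls (-1.78 ± 0.27 (adjusted p = 4.01e-05)). RT1-Ba read 68.0, 70.0, 79.7 and 159.8 at 36 h and 244, 332, 247 and 302 in the controls (-1.35 ± 0.25 (adjusted p = 0.000498)), with 36 h replicate 4 highest, and its dimmer probe set did not pass, at -0.52 (adjusted p = 0.632). Groups did not overlap in any of these 3 genes. The immunoproteasome subunit Psmb10 read 75.2, 49.4, 109 and 114 at 36 h and 228, 249.8, 200.1 and 229 in the controls, likewise without overlap (-1.16 ± 0.21 (adjusted p = 0.000398)). In a bulk sample fewer cells of a type and less RNA per cell cannot be told apart.

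Promoters of 4 class II genes are shown because these genes share a control element and fell or lay below 0 side by side. RT1-Db1, the beta chain gene next to RT1-Da, changed by -0.76 ± 0.17 (adjusted p = 0.00313) and RT1-Bb by -0.63 ± 0.29 (adjusted p = 0.246), and both were chosen after their values were seen. Each sequence is the 120 bases before the start of the RefSeq transcript on GRCr8, 5' to 3' on the gene's strand. Capitals mark CTGATTGG, the letters of the Y box that the factor NF-Y binds, searched on both strands.
RT1-Da (chr20:4515295-4515414, + strand): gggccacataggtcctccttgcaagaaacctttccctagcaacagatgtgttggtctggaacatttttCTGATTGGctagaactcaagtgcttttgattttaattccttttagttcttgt
RT1-Ba (chr20:4576937-4577056, + strand): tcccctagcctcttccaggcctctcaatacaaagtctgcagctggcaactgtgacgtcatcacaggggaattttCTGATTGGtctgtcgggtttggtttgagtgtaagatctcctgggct
RT1-Db1 (chr20:4560163-4560282, - strand): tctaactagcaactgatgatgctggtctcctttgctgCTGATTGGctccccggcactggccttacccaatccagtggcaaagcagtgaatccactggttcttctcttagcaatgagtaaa
RT1-Bb (chr20:4604119-4604238, - strand): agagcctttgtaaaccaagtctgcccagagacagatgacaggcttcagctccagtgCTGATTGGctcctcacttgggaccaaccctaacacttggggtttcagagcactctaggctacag
These letters were found in 1068 of 33469 promoter windows of 250 bases before the start (3.19%). Counted by gene with a RefSeq window, they were found for 16 of 167 risers, 13 of 191 fallers and 323 of 6746 tested genes (4.79%). A match is a description of the sequence only.

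Interferon response genes shared members with these, among them Psmb10. Of 20 tested 7 fell (35%, against 2.96% of all genes) and 0 rose (0 at an unadjusted p), with a median of -0.46 and 4 falls without 36 h replicate 2. Ifitm3, which blocks virus entry, read 1242, 560.3, 646 and 771 at 36 h and 3696, 3480.2, 2114 and 1437 in the controls (-1.66 ± 0.30 (adjusted p = 0.000313)). Irf1, the transcription factor that drives many interferon-gamma targets, read 89.2, 49.5, 44.2 and 161 at 36 h and 320.2, 231, 225 and 207 in the controls (-1.32 ± 0.26 (adjusted p = 0.00113)). Irf7, the factor for type I interferon genes, read 93.7, 95.2, 119 and 187 at 36 h and 259, 199, 281 and 385 in the controls (-1.01 ± 0.21 (adjusted p = 0.00163)). All 3 had every 36 h array below every control. Among 24 inflammatory mediators 1 fell and 0 rose (1 at an unadjusted p), so that 4.17% passed, near the 5.6% of all genes. The fall was that of the chemokine gene Ccl5 at -0.77 ± 0.22 (adjusted p = 0.0309), which ended without 36 h replicate 2 or 3 or control replicate 1 or 2 or 4 (adjusted p from 0.0515 to 0.167). Lcn2, a glucocorticoid-induced and neutrophil gene, read 296, 1274, 3122 and 394 at 36 h and 268, 818, 89.4 and 157 in the controls and did not pass (1.65 ± 0.88 (adjusted p = 0.348)).

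Markers of Kupffer cells, the macrophages of the liver, moved with these genes. Of 6 tested markers 5 fell (83.3%, against 2.96% of all genes), the median was -0.68, and their summed signal was 1009.7 to 1461 at 36 h and 2107 to 2469 in the controls. Clec4f, a lectin found on Kupffer cells, read 248, 272, 292 and 243 at 36 h and 674, 522, 658 and 658 in the controls, with tight groups far apart (-1.15 ± 0.18 (adjusted p = 5.77e-05)). The complement genes C1qa and C1qb, read at 234, 168, 261 and 312 at 36 h and 369, 337, 401 and 494 in the controls and at 202, 219.6, 423 and 284 at 36 h and 465, 507, 421 and 443 in the controls, changed by -0.66 and -0.69 (adjusted p = 0.0462 and 0.0424). The call on C1qa ended without 36 h replicate 1 or 2 or 3 or control replicate 1 or 2 or 3 or 4 (adjusted p from 0.0526 to 0.211) and that on C1qb without 36 h replicate 1 or 2 or 4 or control replicate 1 or 2 or 3 or 4 (adjusted p from 0.0559 to 0.17). The count of 5 was 2 without 36 h replicate 1 or 2 or control replicate 1, 2 or 4, 3 without control replicate 3, and 2 after quantile normalization or median centring. In the list of B and plasma cells Cd74 was the only gene tested, and T and NK cell markers summed to 195 to 297 at 36 h and 278 to 322 in the controls. Sinusoidal endothelium markers, with Fcgr2b, Kdr and Lyve1 the brightest, did not pass (Fcgr2b passed with the 50th percentile as the filter, adjusted p = 0.0458) and summed to 834 to 1169 at 36 h and 1309.8 to 1395 in the controls. The part of these cells in the falls of immune genes was not tested.

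**Figure D4:**
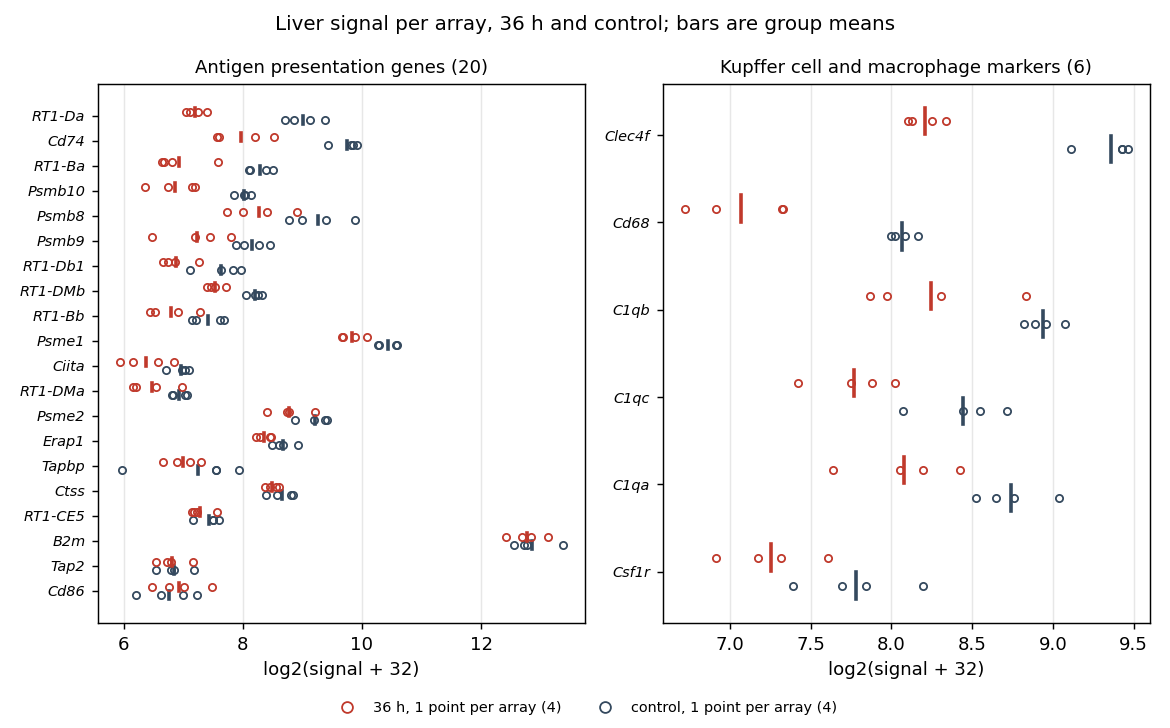
Signal per array, as log2(signal + 32), for the 20 tested antigen presentation genes (left) and the 6 tested Kupffer cell and macrophage markers (right), in order of their change, with bars at the group means (36 h red, control dark blue). RT1-Da, Cd74 and Clec4f show no overlap, whereas the groups overlap for B2m, Tap2 and Cd86, whose changes lie between -0.08 and 0.17.

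Matrix genes lay mostly below 0. In the collagen and matrix list 25 of 30 members were below 0, 4 fell and 0 rose (1 at an unadjusted p), with a median of -0.40. In this list 13.3% passed, against 5.6% of all genes, and 5 members lay above 0, against 41.7% of all tested genes. Bgn, a small leucine-rich proteoglycan, read 112, 108, 34.4 and 21.0 at 36 h and 298, 287, 239 and 356 in the controls, without overlap. Col3a1, a fibrillar collagen, read 361, 406, 393 and 457 at 36 h and 695, 977, 770.3 and 1162 in the controls (-1.07 ± 0.27 (adjusted p = 0.014)), and the call ended without control replicate 4 (adjusted p = 0.0568). Col14a1, a fibril-associated collagen, read 93.4, 119.9, 118 and 195 at 36 h and 319, 300.2, 338 and 254 in the controls (-1.06 ± 0.20 (adjusted p = 0.000538)), without overlap. Vim, the intermediate filament gene of mesenchymal cells, changed by -0.80 ± 0.24 (adjusted p = 0.043) (ended without 36 h replicate 1 or 2 or 3 or control replicate 2 or 3 or 4 (adjusted p from 0.0539 to 0.174)). Stellate cell and fibroblast markers, which include Col3a1, Reln and Dcn, summed to 1326 to 1455 at 36 h and 1621 to 2436 in the controls, and 1 of 10 fell (10%, against 2.96% of all genes). Dcn read 223, 302, 335 and 152 at 36 h and 96.1, 220.2, 229.8 and 79.9 in the controls and lay above 0 without passing (0.65 ± 0.27 (adjusted p = 0.175)). The part of these cells in the falls was not tested.

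Growth genes lay mostly below 0. Of 24 tested cell cycle genes 3 fell and 0 rose (1 at an unadjusted p). Of 24 immediate-early and growth genes 3 fell and 0 rose (4 at an unadjusted p). In each list 12.5% fell, against 2.96% of all genes. Above 0 lay 6 of the cell cycle genes and 7 of the other list, against 41.7% of all tested genes. Ccnd1, which takes cells through G1, read 59.9, 79.6, 75.4 and 157 at 36 h and 513, 367, 223 and 299 in the controls, without overlap. Plk1, a mitotic kinase, read 39.1, 33.7, 37.3 and 16 at 36 h and 133, 83.9, 69.4 and 74.5 in the controls (-0.93 ± 0.22 (adjusted p = 0.00622)). Pcna, the sliding clamp of DNA replication, read 219, 215, 171 and 172 at 36 h and 377, 369, 262 and 241 in the controls (-0.59 ± 0.15 (adjusted p = 0.0103)), and its call ended without control replicate 1 (adjusted p = 0.0561) or control replicate 2 (adjusted p = 0.0612). Egr1 read 62.1, 123, 53.2 and 53.5 at 36 h and 515, 576, 194 and 143 in the controls, and the 2 controls nearest to the 36 h arrays were replicates 3 and 4. Irf1, above, and Id3, an inhibitor of basic helix-loop-helix factors, were the other 2 of the immediate-early list, with Id3 at 214, 171, 171 and 179 at 36 h and 440.1, 375, 456 and 225 in the controls (-0.87 ± 0.17 (adjusted p = 0.00121)).

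In the insulin and IGF signalling list 3 of 25 fell (12%, against 2.96% of all genes) and 0 rose (1 at an unadjusted p). Igfbp2 was the largest. Socs2, which limits growth hormone signalling, read 7.93, 45.1, 26.4 and 62.1 at 36 h and 142, 92.5, 140.3 and 139 in the controls, without overlap (-1.31 ± 0.41 (adjusted p = 0.0492)), but the call ended without 36 h replicate 1 or 2 or 3 or control replicate 1 or 2 or 3 or 4 (adjusted p from 0.0646 to 0.181). The kinase gene Akt1 changed by -0.83 ± 0.22 (adjusted p = 0.0193) (ended without 36 h replicate 1 or 2 or control replicate 2 or 4 (adjusted p from 0.0541 to 0.137)), and its 2 dimmer probe sets did not pass, at -0.37 (adjusted p = 0.28) and -0.17 (adjusted p = 0.671). Of 39 genes of the oxidant response and glutathione 3 fell and 0 rose (3 at an unadjusted p), so that 7.69% passed, against 5.6% of all genes. Gss, the glutathione synthetase, read 98.9, 60.8, 76.3 and 169 at 36 h and 298, 386, 206 and 188 in the controls (-1.19 ± 0.25 (adjusted p = 0.00219)). Gstp1, a glutathione transferase, read 157, 74.3, 139 and 112 at 36 h and 189, 307, 241 and 213 in the controls (-0.84 ± 0.19 (adjusted p = 0.0055)), and its call ended without 36 h replicate 2 (adjusted p = 0.052). Gclc, the rate-limiting ligase of glutathione synthesis, changed by -0.64 ± 0.20 (adjusted p = 0.047), a call that ended when any 1 of the 8 arrays was left out (adjusted p from 0.0502 to 0.144). Its dimmer probe set did not pass, at -0.57 (adjusted p = 0.184).

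The ribosomal protein list had a median of -0.16 and the proteasome list one of 0.08. The first was 0.21 in the high spike-in arrays and the second -0.01 in the low ones. In limma's test 0 of 38 ribosomal protein genes passed (1 higher and 3 lower at an unadjusted p under 0.05) and 0 of 28 proteasome genes (1 and 0). Their largest changes were those of Rps29 (0.40 ± 0.16 (adjusted p = 0.156)) and Psma1 (0.51 ± 0.23 (adjusted p = 0.22)). Rps29 passed with the spike-in level as a block (adjusted p = 0.0414). Of 39 heat shock and endoplasmic reticulum folding genes 2 rose and 0 fell (4 at an unadjusted p), so that 5.13% passed, near the 5.6% of all genes. The risers were Edem1 and the mitochondrial chaperonin gene Hspd1 (0.51 ± 0.15 (adjusted p = 0.0316)). The call on Hspd1 ended without 36 h replicate 1 or 2 or 3 or 4 or control replicate 2 or 4 (adjusted p from 0.0521 to 0.109). Among the remaining marker lists none passed for cholangiocytes, adipocytes, neutrophils, exocrine pancreas or skeletal muscle. Exocrine pancreas markers, with Cela1, Prss1 and Amy2a3 the brightest, summed to 645 to 3909.7 at 36 h and 460.4 to 1618 in the controls, skeletal muscle markers to 3009 to 7899 at 36 h and 1713 to 7891 in the controls, neutrophil markers to 314 to 3138 at 36 h and 98.6 to 1006 in the controls, adipocyte markers (Lpl, Cfd and Plin1) to 123 to 276 at 36 h and 181 to 276 in the controls, and the cholangiocyte marker Epcam to 155 to 197 at 36 h and 149 to 204 in the controls. Only 2 of the 8 listed neutrophil markers were tested, Lcn2 and S100a9, and most of their summed signal was that of Lcn2. They went opposite ways. Lcn2 averaged 1271 at 36 h and 333 in the controls, and S100a9 averaged 15.7 and 73.2. Acta1, an actin of skeletal muscle, read 3457, 359, 1759.7 and 805 at 36 h and 7.38, 1802, 2207 and 3964 in the controls, with control replicate 1 far below the rest.

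Clock genes were read against the controls and against the neighbouring times. Against control 2 of 14 tested members rose (14.3%, against 2.64% of all genes) and 0 fell (2 at an unadjusted p), with a median of 0.09. Usp2, a deubiquitinase with rhythmic expression, read 296, 338, 466 and 344 at 36 h and 106, 68.0, 56.1 and 90.6 in the controls, without overlap (1.81 ± 0.31 (adjusted p = 0.000143)). Dbp, a PAR-domain transcription factor driven by BMAL1 and CLOCK, read 337, 367, 509 and 448 at 36 h and 145, 316, 52.0 and 169 in the controls. The highest control, replicate 2, was just below the lowest 36 h array (1.30 ± 0.32 (adjusted p = 0.00879)), and the call ended without control replicate 3 (adjusted p = 0.0749). The other 12 did not pass and ran from -0.70 (Nfil3) to 0.78 (Per2). Between them lay Bmal1 (-0.41), Timeless (-0.10), Clock (-0.07), Cry2 (-0.05), Bhlhe40 (0.04), Per1 (0.05), Csnk1d (0.12), Hlf (0.29), Nr1d1 (0.31) and Nr1d2 (0.46). Nfil3, a repressor that competes with DBP, passed without 36 h replicate 4 (adjusted p = 0.0264) or control replicate 4 (adjusted p = 0.0468), with array weights (adjusted p = 0.0239) and in the low spike-in arrays, at -1.04 (adjusted p = 0.00412).

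A contrast of 36 h with the mean of 24 h and 48 h was added because those arrays bracket it and leave the controls out. By the nominal times 24 h and 48 h lie a whole day apart, and 36 h lies midway between them. The labels give no hour of day, so time since the drug and phase of day cannot be told apart in this contrast. In limma 28 of 11106 probe sets passed (0.252%), 11 higher (0.099%) and 17 lower (0.153%), or 22 of 8069 genes (0.273%), 7 higher (0.0868%) and 15 lower (0.186%). Leaving out 36 h replicate 1, 2, 3 or 4 lowered the count of probe sets to 13, 8, 12 or 11. Leaving out 24 h replicate 1 or 2 gave 18 or 17, and leaving out 48 h replicate 3 or 4 gave 14 or 18. Without 48 h replicate 1, the array of doubtful label, 19 passed. Of the 14 clock genes 4 passed, Dbp, Nr1d2, Nr1d1 and Bmal1, and the first 3 were higher.

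Dbp signal was 337, 367, 509 and 448 at 36 h, 41.5, 15.3, 12.2 and 17.4 at 24 h and 65.4, 59.4, 19.3 and 101 at 48 h. Each 36 h array stood above every other array of the time course, of which 10 h replicate 3 was next at 320.2, and the difference from the neighbouring times was 2.70 ± 0.27 (adjusted p = 3.31e-08). Nr1d2, which encodes the repressor REV-ERB beta, read 339, 412, 258 and 312 at 36 h, 77.3, 35.5, 121 and 45.4 at 24 h and 189.8, 178, 71.6 and 213 at 48 h (1.42 ± 0.25 (adjusted p = 0.00416)). Nr1d1, for REV-ERB alpha, read 127, 128, 96.7 and 96.1, 40.6, 29.1, 41.6 and 69.2 and 65.0, 32.1, 42.6 and 55.9 at the same times (0.88 ± 0.20 (adjusted p = 0.0436)). Groups did not overlap in either gene. The call on Nr1d1 ended without 24 h replicate 1 or 2 or 3 or 36 h replicate 1 or 2 or 3 or 4 or 48 h replicate 2 or 3 or 4 (adjusted p from 0.0545 to 0.191). Bmal1 went the other way, with 63.7, 40.1, 58.3 and 37.4 at 36 h against 115, 136, 135 and 99.4 at 24 h and 98.0, 100, 109 and 95.7 at 48 h. All 36 h values were below all 8 neighbours (-0.81 ± 0.14 (adjusted p = 0.00282)). Control signals of Bmal1 were 90.2, 55.2, 115 and 54.9, and control replicates 2 and 4 lay within the 36 h range.

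The promoters of Bmal1 and Nr1d2 are shown because they hold a motif of the NR1D loop. Capitals mark AGGTCA, the half-site bound by REV-ERB proteins and other nuclear receptors, searched on both strands. Both sequences are from RefSeq on GRCr8, 5' to 3' on the gene's strand, and the Nr1d2 stretch ends 131 bases before its start.
Bmal1 (chr1:176766208-176766327, + strand): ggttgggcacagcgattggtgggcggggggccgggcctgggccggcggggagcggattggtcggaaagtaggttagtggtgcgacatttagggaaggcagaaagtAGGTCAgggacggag
Nr1d2 (chr15:9954784-9954903, + strand): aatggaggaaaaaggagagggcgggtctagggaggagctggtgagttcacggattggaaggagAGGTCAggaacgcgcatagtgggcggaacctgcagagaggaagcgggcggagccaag
The half-site was found in 4707 of 33469 promoter windows (14.1%), so it is a common string. Counted by gene with a window, it was found for 798 of 6746 tested genes (11.8%). It was found for 27 of 167 genes that rose against control and 25 of 191 that fell.

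Genes outside the clock list passed in this contrast too. Hsd17b2, which inactivates estradiol and testosterone, gave the largest difference. Its signal was 2546, 3702, 4639 and 4537 at 36 h, 499, 148, 1039.7 and 381 at 24 h, 950.3, 449, 219.7 and 1164 at 48 h and 1469, 483, 706 and 1397 in the controls. It was higher at 36 h than on any other array of the course, with changes of 2.84 ± 0.40 (adjusted p = 8.29e-05) from the neighbouring times and 1.99 ± 0.46 (adjusted p = 0.00597) from control. Sds read 84.3, 189.8, 272 and 83.6 at 24 h and 2201, 3256, 3248 and 1677 at 48 h, so it was high at 36 h and 48 h and low at 24 h. Its difference of 2.27 ± 0.53 (adjusted p = 0.0464) ended without 24 h replicate 1 or 2 or 4 or 36 h replicate 1 or 2 or 3 or 4 or 48 h replicate 1 or 3 or 4 (adjusted p from 0.0608 to 0.206).

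The largest falls from the neighbouring times were of genes of varied roles. Tubb2a, a beta-tubulin, ran from 239 to 481 at 36 h, 1791 to 2609 at 24 h and 509 to 769 at 48 h. It differed by -1.80 ± 0.33 (adjusted p = 0.0065) and ended without 36 h replicate 2 (adjusted p = 0.0617). Plin2, the coat protein of lipid droplets, ran from 517 to 628 at 36 h, 1256 to 2175 at 24 h, 688 to 1425 at 48 h and 889.8 to 1960.1 in the controls. It was lower than both, with differences of -1.08 ± 0.21 (adjusted p = 0.0125) from the neighbours and -1.10 ± 0.24 (adjusted p = 0.00371) from control. The first call ended without 36 h replicate 1 (adjusted p = 0.0594) or 36 h replicate 2 (adjusted p = 0.0663), and a dimmer probe set did not pass against control, at -0.37 (adjusted p = 0.581). Chka, the choline kinase of phosphatidylcholine synthesis, differed by -1.32 ± 0.25 (adjusted p = 0.00704) from the neighbours, a call that ended without 36 h replicate 4 (adjusted p = 0.087). From control it differed by -0.99 ± 0.29 (adjusted p = 0.0318), and that call ended without 36 h replicate 2 or 4 or control replicate 3 or 4 (adjusted p from 0.0714 to 0.191). Clpx, a mitochondrial protease subunit, differed by -1.12 ± 0.25 (adjusted p = 0.0291), a call that ended without 24 h replicate 1 or 2 or 3 or 36 h replicate 1 or 2 or 3 or 4 or 48 h replicate 1 or 2 or 4 (adjusted p from 0.0522 to 0.192). Cdkn1a, the cell cycle inhibitor p21, differed by -1.04 ± 0.22 (adjusted p = 0.0247), a call that ended without 24 h replicate 4 or 36 h replicate 1 or 2 or 4 or 48 h replicate 3 (adjusted p from 0.0533 to 0.118). Against control the values of Tubb2a, Clpx and Cdkn1a were -0.43, -0.68 and -0.28, none of which passed, and Clpx passed without control replicate 2 (adjusted p = 0.0416).

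**Figure D5:**
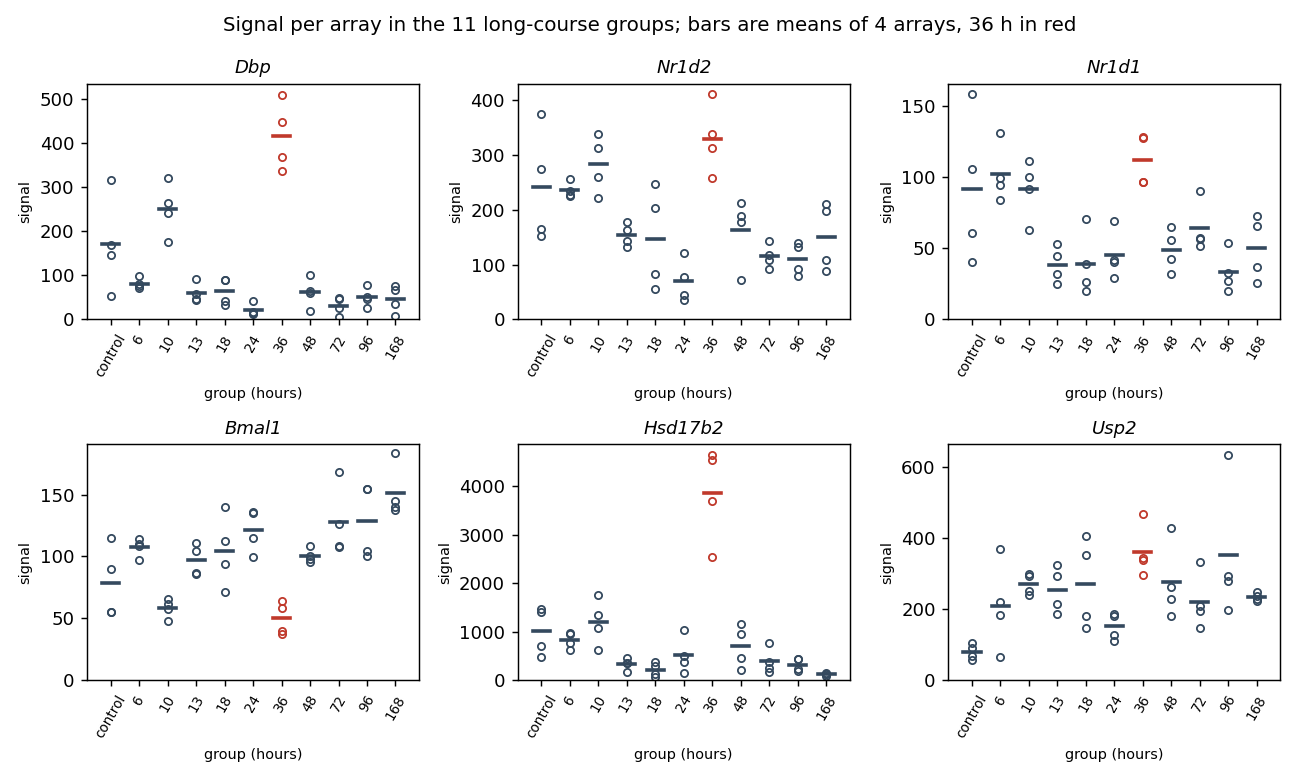
Signal per array (linear vertical axes from 0) of Dbp, Nr1d2, Nr1d1, Bmal1, Hsd17b2 and Usp2 in the 11 groups of the course, from control to 168 h, with a bar at the mean of 4 arrays and the 36 h group in red. Dbp and Hsd17b2 at 36 h exceed every other array, and Bmal1 at 36 h has the lowest mean of the 11 groups, 49.9.

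Over the 11 groups the mean of Dbp was highest at 36 h, 415, followed by 250.2 at 10 h and 170.4 in the controls, and the controls overlapped with 10 h. The lowest mean was 21.6 at 24 h. Bmal1 had its next lowest mean at 10 h, 58.1, and Hsd17b2 its next highest there, 1204. The genes whose 11 group means followed Dbp most closely were Nr1d2 (Pearson r = 0.910), Dsp (0.900), Mfn1 (0.856), Hsd17b2 (0.846) and Ugp2 (0.837). These coefficients describe 11 means that share their arrays, and the genes were picked for them. Gpt averaged 2062 at 36 h and 1301 at 168 h against 86.7 in the controls, whereas A2m averaged 7648 at 36 h, 1321 at 72 h and 11152 at 168 h, where its arrays ran from 1319 to 19444.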

How the data were processed

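Liver total RNA of Wistar rats had been measured on 1 Affymetrix rat array per sample. The values are those deposited by the authors, 1 linear intensity per probe set and array. No label or header used here names the summarising software or genome build. Arrays numbered 44 in this course and shared a 2% trimmed mean of about 150.05, and the deposited scaling was kept. No 2 arrays of 946 pairs were identical.

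Of 15923 probe sets 57 Affymetrix controls were dropped, as were those below the 30th percentile of mean signal, which left 11106. The log2(signal + 32) values of single arrays entered 1 limma model (version 3.58.1, R 4.3.3) of the 44 arrays in 11 groups of 4, with eBayes and a variance trend, so that all groups share 1 estimate of spread. Benjamini-Hochberg adjustment covered every probe set tested. The code was tested on simulated data. Of the probe sets 12789 had 1 gene symbol in the platform annotation (312 several, 2822 none), and 12754 symbols were updated through RefSeq gene IDs. The text names the 15 largest rises and falls against control, the 5 largest each way against the mean of 24 h and 48 h, 5 genes read in any case, all tested clock genes, up to 4 members that passed per list (the largest change where none did), the 3 brightest markers per cell type and the 5 genes most like Dbp. The arrays compared and the lists were chosen with earlier results of these data known. Alternatives were other constants, filters, scalings, weights, blocks and array subsets. The number of arrays limits the precision.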

Additional observations from a re-analysis of the deposited data

Results flagged for a closer look

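In 264 sets of 4 arrays (each named gene in each group), 20 had 1 array whose gap to the next exceeded Dixon's 95% critical value for 4 values, where chance alone flags about 1 in 20 such sets. Control replicate 2 gave 6 of the 20, control replicate 1 gave 4, control replicate 4 and 36 h replicate 4 gave 3 each, 36 h replicate 2 gave 2, and 36 h replicates 1 and 3 gave 1 each.

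Control replicate 2 was the lowest of its group for Sult1a1 (signal 215, the others 1730 to 2427), Nr1h3 (322, the others 354 to 360.4), Socs2 (92.5, the others 139 to 142) and the Kupffer cell lectin Clec4f (522, the others 658 to 674). It was the highest for Exosc5 (103, the others 13.7 to 22.2) and Angptl4 (995, the others 349 to 411). Control replicate 1 was the highest for Sds (1641, the others 67.5 to 81.1), Cyp17a1 (184, the others 28.7 to 41.0) and Ccl6 (1466, the others 1024 to 1073), and the lowest for the muscle actin gene Acta1 (7.38, the others 1802 to 3964). Control replicate 4 was the highest for A2m (311, the others 211 to 225) and Mdh1 (1870, the others 1444 to 1483) and the lowest for Serpina7 (301, the others 1500.2 to 1796).

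At 36 h, replicate 4 was the lowest for Gpt (1179, the others 2295 to 2476) and Retreg1 (724, the others 1654 to 1917) and the highest for RT1-Ba (160, the others 68.0 to 79.7). Replicate 2 was the highest for Egr1 (123, the others 53.2 to 62.1) and the lowest for Cry2 (38, the others 103 to 113). Replicate 1 was the highest for Igfbp2 (183, the others 89.7 to 101) and replicate 3 the highest for Cela1 (370, the others 234 to 247).

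The 10 genes named for the limma contrast of 36 h with the mean of 24 h and 48 h were picked among those that passed it. That they differ was therefore set by the choice. Their adjusted p ran from 3.31e-08 to 0.0464. Except for Hsd17b2, Dbp and Nr1d2, each of these calls ended without some single array. The log2 differences were 2.84 for Hsd17b2, 2.7 for Dbp, 2.27 for Sds, 1.42 for Nr1d2 and 0.878 for Nr1d1. The lower genes were Tubb2a at -1.8, Chka at -1.32, Clpx at -1.12, Plin2 at -1.08 and Cdkn1a at -1.04.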

How the results depend on the processing

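The 563 probe sets called against control became 341 to 503 when 1 array was left out (341 without 36 h replicate 2, 359 without control replicate 2), 219 with a fit on the 8 arrays alone and 2 with the high spike-in arrays only. Under other constants, filters, scalings, weights and blocks the count was 501 to 667. The 28 called against 24 h and 48 h became 8 to 28 when 1 array was left out, 18 with the 12 arrays alone, 72 with array weights and 16 with the low spike-in arrays. With the high spike-in arrays limma called 0 (319 at an unadjusted p under 0.05). Adding the replicate number as a block gave 626 and 32, and adding the spike-in level as a block gave 667 and 31. The deviations of same-numbered 36 h and control arrays correlated at 0.0012, 0.039, -0.12 and 0.23, and those of differently numbered arrays at -0.239 to 0.179. The numbers were not taken as pairs. The value of 0.23 was that of the replicate 4 arrays, which both had high spike-in signal, so these values do not show that the replicate number carries no information. The replicate block ended 1 call among the named genes, Hbb (adjusted p = 0.0532), and in the other contrast Sds (adjusted p = 0.0574).

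Of 89 named genes that passed against control, 58 passed in every fit with 1 array left out and 69 in all other alternatives besides the fit on 8 arrays, which ended 39 calls, and the high spike-in arrays, which ended 87. Among the calls ended by the fit on 8 arrays were those of Bhmt, Sult1a1, Prodh, Igfbp2, Cavin3, Dbp, Orm1, Acox2, Slc27a5, Pdk4 and Id3. Quantile normalization ended 12 and median centring 11. Under the 22 alternatives no called gene changed direction, and 21 genes that had not passed changed sign in at least 1. Averaging the probe sets of each gene gave 497 genes in place of 452. Among other probe sets of called genes 10 had the same call, 11 did not, and 0 had the opposite sign. The deposited table used here holds no detection calls, so for low signals it is not known whether they lay above background.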
